A study of Homo sapiens with 60 samples.

Results

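Saengmaek-san and Guibi-tang are traditional Korean herbal formulas, and the comparison described here sets their ethanol extracts against each other at the same high dose in HT29, an established human colorectal adenocarcinoma line that keeps features of absorptive and mucus-secreting gut epithelium. The compared libraries were chosen by their labels: 3 of cells given Saengmaek-san at 500 µg/mL and 3 of cells given Guibi-tang at 500 µg/mL, or 6 of the 60 libraries of the series. All 6 were collected after 24 h, and they belong to 1 library set by their names. The series asks how herbal formulas and single herbs act on the transcriptome, measured by paired-end sequencing of mRNA libraries. Both formulas were also given at a medium dose of 100 µg/mL and a low dose of 20 µg/mL, with 3 libraries per formula and dose, and those 12 libraries share no sample with the high-dose ones. DMSO alone (0.1% in the sample labels, 2% in the design text) was the vehicle in 3 libraries, which belong to another set, so their levels are given below as description only. The single herbs Aucklandiae Radix (370 and 14.8 µg/mL) and Polygalae Radix (380 and 15.2 µg/mL) enter with 2 libraries per dose. By the series' design text the high dose of an extract was its IC20 where that lay below 500 µg/mL, so the herbs' high doses were set by an effect on the cells. Each formula is 1 extract tested in 1 cell line. Nothing in the labels tells if replicates came from different cultures, and the p-values below then reflect only how far these libraries scatter, which may be technical.

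As background, Saengmaek-san is made of ginseng, the tuber of Liriope or Ophiopogon and the fruit of Schisandra, whereas Guibi-tang is a larger mixture whose classical recipe includes both Aucklandiae Radix and Polygalae Radix. Plant extracts meet gut epithelium through its defences against foreign chemicals. Electrophiles release the transcription factor NRF2 from its inhibitor KEAP1, and NRF2 then acts at antioxidant response elements of genes for glutathione supply, NADPH supply and detoxification. Flat aromatic compounds bind the receptor AHR, which acts at xenobiotic response elements such as those of CYP1A1. Colonic epithelium renews itself from WNT-dependent stem cells whose daughters become absorptive cells or, under the factor ATOH1, mucus-secreting goblet cells.

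Total expected counts of the 6 libraries ranged from 18690501 to 25823050, and genes with at least 10 counts from 14552 to 15191, within the 17079221 to 36796414 counts seen over all 60 libraries. Of 10 markers of colonic epithelium, 10 were measured, and their summed level was 12160 to 12610 CPM (counts scaled to library depth) with Saengmaek-san and 11800 to 12700 CPM with Guibi-tang. The keratins KRT8 (6220 to 6847 CPM over the 6 libraries) and KRT18 (3706 to 4261 CPM) were the highest of these markers. CDX1 lay under 1 CPM in all 6 libraries, and CDX2 and GPA33 were low, at 2.91 to 4.46 and 1.08 to 2.55 CPM. Fibroblast, blood cell and hepatocyte markers lay under 1 CPM in all 6 libraries for 5 of 6, 5 of 6 and 6 of 6 genes. Defining genes such as COL1A2, CD3E and FGB were at 0 in all 6. The share of counts from mitochondrial genes was 8.84%, 9.08% and 10.1% with Saengmaek-san and 8.47%, 8.33% and 7.74% with Guibi-tang. Those groups do not overlap, with means of 9.32% ± 0.649 and 8.18% ± 0.389 (SD, n = 3) and an exact two-sided permutation p of 0.1, the smallest that 3 against 3 libraries can give. All 13 mitochondrially encoded mRNAs leaned the same way (median log2 difference 0.17) and 0 of them passed the test. At medium and low dose, all 13 leaned the other way, with medians of -0.24 and -0.22. The part of this share in the results below was not tested.

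At 500 µg/mL, among genes at 5 CPM or more, the largest differences towards Guibi-tang were in the aldo-keto reductases AKR1C1 and AKR1C2 and the hydroxylases CYP4F3 and CYP4F11, and the leading gene towards Saengmaek-san was LINC00261, followed by RASL11A. Of 16978 genes tested, 2164 were called at an adjusted p under 0.05, which is 12.7%. Of these, 1083 (6.38%) were higher with Saengmaek-san and 1081 (6.37%) with Guibi-tang. Most differences were small: the median size among called genes was 0.30 on the log2 scale, and 151 reached 2-fold, 88 higher with Saengmaek-san and 63 with Guibi-tang. With DESeq2, 95 genes were both called and past 2-fold, 57 and 38 in the same order. The 3 libraries of one formula lay wholly above or below the 3 of the other for 5385 genes, or 31.7%. The median difference over all genes was 0.0065. Below, a difference is the log2 value of Saengmaek-san minus Guibi-tang with its standard error (SE), and a negative value means higher with Guibi-tang. CPM values are not scaled by gene length, so levels are compared within a gene, and gene positions are those of GENCODE 29 on GRCh38. The 24 genes named first are the 12 largest called differences in each direction among genes with non-overlapping libraries and a mean of at least 5 CPM in the higher formula, so their high-dose values are a description of how far the formulas were apart.

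The aldo-keto reductases reduce reactive aldehydes, ketones and steroids. AKR1C2 (chr10:4987400-5018031) was at 21.8, 21.7 and 23.9 CPM in the 3 Saengmaek-san libraries and 109.6, 116 and 120.1 CPM in the 3 Guibi-tang libraries, 5.12-fold higher with Guibi-tang (difference -2.36 ± 0.07, adjusted p = 3.93e-27). Its neighbour AKR1C1 (chr10:4963253-4983283) was at 27.1, 22.9 and 21.7 CPM against 85.5, 99 and 95.5 CPM (-1.97 ± 0.08, adjusted p = 3.65e-22). AKR1C3 (chr10:5035354-5107686), which also makes active androgens and prostaglandins, was at 70, 67.6 and 71.6 CPM against 158, 177 and 184 CPM (-1.31 ± 0.07). In each of these genes every Guibi-tang library lay above every Saengmaek-san library. The copies are near-identical and reads can be divided between them, so their sum is the firmer value: 116 ± 3.53 CPM with Saengmaek-san and 381 ± 24.9 CPM with Guibi-tang (SD, n = 3), a ratio of 3.29. AKR1B10 (chr7:134527592-134541408), a retinal and aldehyde reductase, was at 159.7, 157 and 162 CPM against 386, 438 and 428 CPM (-1.39 ± 0.05, adjusted p = 5.64e-26). ALDH3A1 (chr17:19737984-19748943), which oxidises aldehydes to acids, was at 34.7, 34.3 and 37.3 CPM against 98.4, 98 and 98.6 CPM (-1.47 ± 0.04, adjusted p = 1.23e-28). Its Guibi-tang libraries were close together, and the vehicle libraries, at 29.6 ± 0.933 CPM (SD, n = 3), lay near those of Saengmaek-san.

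CYP4F3 and CYP4F11 are fatty acid and vitamin K hydroxylases that lie on chromosome 19. CYP4F3 was at 1.8, 1.59 and 1.32 CPM with Saengmaek-san and 5.26, 5.82 and 6.23 CPM with Guibi-tang (-1.89 ± 0.18, adjusted p = 5.18e-11). CYP4F11 was at 1.69, 1.44 and 1.36 CPM against 5.01, 5.33 and 5.81 CPM (-1.85 ± 0.19, adjusted p = 2.49e-10). Both were low in the vehicle too, at 1.17 ± 0.119 and 0.979 ± 0.24 CPM. The 4 measured CYP4F genes summed to 6.27 ± 0.416 CPM against 15.5 ± 1.31 CPM, a ratio of 2.48.

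The remaining genes of the 12 belong to membranes, adhesion and the cell cortex. SDCBP2, a PDZ protein that binds phosphoinositides, was at 5.95, 5.58 and 5.91 CPM with Saengmaek-san and 15.4, 19 and 18.3 CPM with Guibi-tang (-1.6 ± 0.11). AHNAK2, a giant scaffold protein, was at 7.39, 8.02 and 6.03 CPM against 17.3, 22 and 21.1 CPM (-1.52 ± 0.11). EMP1, an epithelial membrane protein, was at 35.9, 35.3 and 34.9 CPM against 75.6, 79.9 and 85.4 CPM (-1.18 ± 0.05). CEACAM5, the carcinoembryonic antigen of colonic surface cells, was at 7.49, 8.45 and 8.52 CPM against 18, 17.8 and 17.1 CPM (-1.11 ± 0.08). ADAM19, a membrane protease, was at 32.4, 30.5 and 31.3 CPM against 59.6, 71.3 and 67.7 CPM (-1.08 ± 0.06). In all of these, the Saengmaek-san libraries stayed near the vehicle means of 6.57, 7.46, 33, 7.54 and 31.5 CPM in the same order.

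The 12 genes higher with Saengmaek-san were led by LINC00261 (chr20:22547671-22578642), a long non-coding RNA of endodermal tissues that lies beside FOXA2. It was at 10.6, 10.5 and 10.8 CPM with Saengmaek-san and 3.51, 3.81 and 3.27 CPM with Guibi-tang (1.59 ± 0.10, 3.01-fold, adjusted p = 2.01e-16), and at 15.6 ± 0.359 CPM in the vehicle. Both formulas thus lay under the vehicle libraries, Guibi-tang further. RASL11A, a small GTPase linked to ribosomal RNA transcription, was at 14.3, 14 and 16.6 CPM against 5.36, 6.14 and 5.81 CPM (1.38 ± 0.09).

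Several of the others carry solutes or scaffold carriers at the brush border. SLC38A11, a putative amino acid transporter, was at 12, 10.7 and 10.5 CPM with Saengmaek-san and 5.26, 4.08 and 3.92 CPM with Guibi-tang (1.32 ± 0.13). SLC6A20, a proline transporter, was at 5.59, 4.99 and 4.59 CPM against 2.61, 2.02 and 2.08 CPM (1.18 ± 0.13). PDZK1, a scaffold for apical transporters, was at 12, 12.3 and 12.6 CPM against 6.27, 6.76 and 6.36 CPM (0.92 ± 0.07). With Saengmaek-san these genes lay near or somewhat under their vehicle means (11.8, 6.82 and 13.4 CPM), and with Guibi-tang further under them. NOX1, the superoxide-producing NADPH oxidase of colonic epithelium, was at 14.2, 13.4 and 12.3 CPM against 6.72, 6.63 and 6.18 CPM (1.02 ± 0.10). QPRT, an enzyme of NAD synthesis from tryptophan, was at 10.3, 11.2 and 10.9 CPM against 5.61, 5.29 and 4.89 CPM (1.04 ± 0.09). RARRES1, a retinoid-responsive gene, was at 11.2, 10.7 and 9.88 CPM against 4.81, 3.94 and 4.66 CPM (1.24 ± 0.11), and here the vehicle mean of 5.72 CPM lay between the formulas. The last of the 12 were LOXL1, a cross-linker of elastin (1.2 ± 0.09), AKAP7, an anchor of protein kinase A (1.18 ± 0.12), and PTPRO, a receptor tyrosine phosphatase (0.97 ± 0.08). Their libraries did not overlap either, with adjusted p of 2.69e-13, 7.52e-10 and 1.66e-13.

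**Figure D1:**
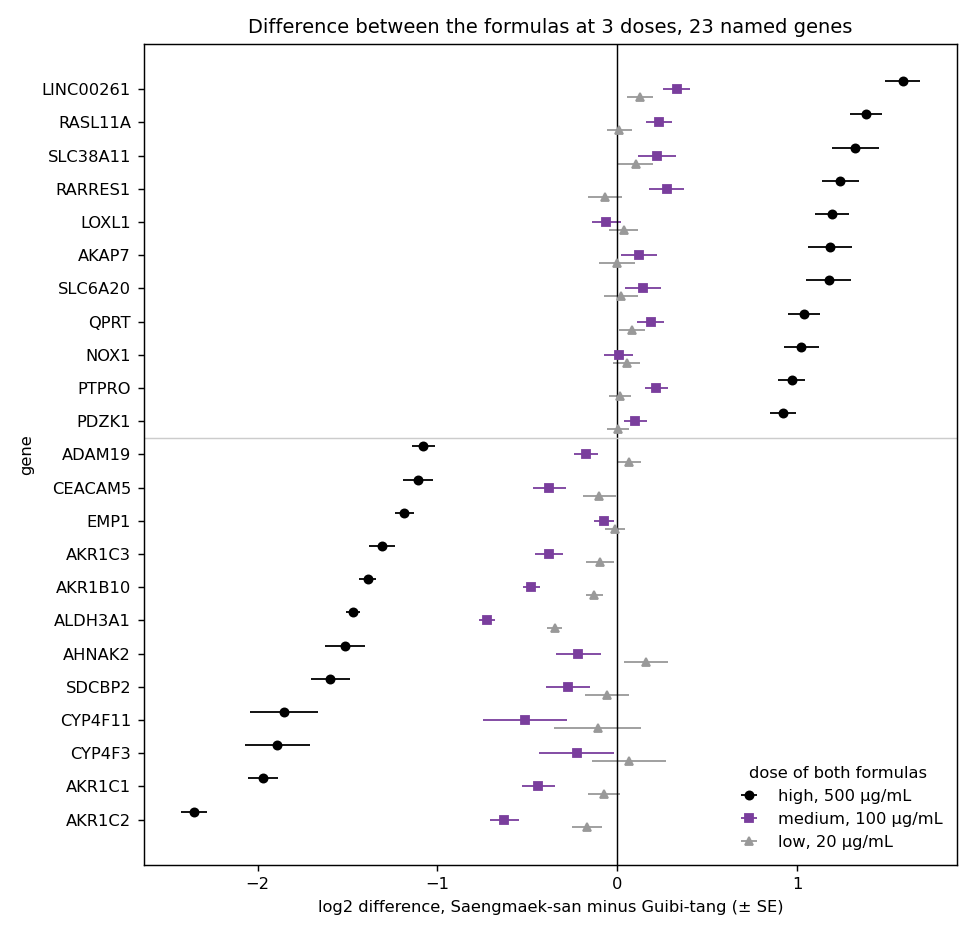
Difference between the formulas (x axis, log2 of Saengmaek-san minus Guibi-tang, bars are SE from the edgeR fit) for 23 of the 24 named genes at high, medium and low dose, with 3 libraries per formula and dose. The high-dose points lie between -2.36 and 1.59, most medium-dose points lie on the same side of 0 but closer to it, and the low-dose points cluster around 0.

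Genes controlled by NRF2 formed the list with the lowest median. All 24 measured members of that list were called higher with Guibi-tang, beside 6.37% of all genes, and the list's median difference was -0.56, beside 0.0065 for all genes. The members were chosen with earlier results of these data known, so the count is a description of the list. The counts of calls in all later lists at this dose are to be read against the same shares of all genes, 6.38% towards Saengmaek-san, 6.37% towards Guibi-tang and 12.7% in all. They cover the list's main branches. In glutathione supply, the cystine carrier SLC7A11 was at 213, 205 and 179.5 CPM with Saengmaek-san and 346, 364 and 358 CPM with Guibi-tang (-0.84 ± 0.11, adjusted p = 1.95e-07). The vehicle lay at 109.9 ± 17.6 CPM, below both formulas. At 20 µg/mL the formulas already lay above those libraries of the other set, at 162 to 181 CPM with Saengmaek-san and 158 to 171 CPM with Guibi-tang. The catalytic and modifier subunits of glutamate-cysteine ligase, GCLC and GCLM, differed by -0.59 ± 0.05 and -0.47 ± 0.07. In NADPH supply, malic enzyme ME1 differed by -0.35 ± 0.05. TXNRD1, which reduces thioredoxin, was at 427, 412 and 385 CPM against 592, 615 and 613 CPM (-0.57 ± 0.04). NQO1, a quinone reductase, was at 635, 604 and 621 CPM against 855, 896 and 893 CPM (-0.51 ± 0.04). These enzymes share a fold near or below 2, smaller than that of the aldo-keto reductases. The smallest difference in the list was that of the transaldolase TALDO1 (-0.17 ± 0.05, adjusted p = 0.0225). The transcript of NRF2 itself, NFE2L2, was at 125, 122 and 131 CPM against 132, 125 and 126 CPM (-0.02 ± 0.06, adjusted p = 0.913), and its groups overlapped. GCLC, GCLM, TXNRD1, TALDO1 and NFE2L2 were picked for their roles after their values were seen.

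Iron handling and haem breakdown share members with that list. The ferritin light chain FTL, part of the shell that stores iron, was at 2178, 2146 and 2262 CPM with Saengmaek-san and 3796, 3920 and 4055 CPM with Guibi-tang (-0.84 ± 0.05, adjusted p = 6.93e-16). The heavy chain FTH1 was at 4500, 4611 and 4808 CPM against 6713, 7229 and 7050 CPM (-0.59 ± 0.06). Haem oxygenase HMOX1 was at 14.8, 15.5 and 15 CPM against 19.6, 21.6 and 20.4 CPM (-0.45 ± 0.07). The iron exporter SLC40A1 went the other way (0.22 ± 0.04, adjusted p = 5.77e-05). Of 10 measured iron genes, 3 were called higher with Guibi-tang and 1 with Saengmaek-san, and the list's median was -0.07.

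Promoters of the list were searched for the letters of the element at which NRF2 acts. RefSeq promoters on GRCh38.p14, from 250 bases before the gene's start to 50 after, were found for 18 of the 24 members. The core of the antioxidant response element, TGACNNNGC, searched on both strands, occurred in 6 of those 18 (GCLM, TXNRD1, PGD, ME1, PIR and CBR1) and in 13.3% of 35116 RefSeq promoters. The AKR1C1, AKR1C2 and AKR1C3 promoters held no match in this window. For AKR1C2 and AKR1C3 the RefSeq window (chr10:5003808-5004107 and chr10:5048531-5048830) lies inside the gene position given above. The GENCODE starts of those 2 genes were thus not searched. The core can contain a whole AP-1 site, TGANTCA, as it does in the ME1 promoter. The AP-1 site occurred in 3 of the 18 and in 7.71% of all promoters. ME1 and PIR are counted for both motifs, so the counts are not separate. The 3 sequences below are all from genes higher with Guibi-tang. They are those of the 2 list members with the largest difference among those with a match before the start, and of CYP4F11. CYP4F11 is the only gene of the 12 named higher with Guibi-tang whose promoter held a match, of 10 with a promoter. On the other side, 2 of the 11 promoters of genes named higher with Saengmaek-san held the core, those of LINC00261 and AKAP7. The differences of LINC00261 and AKAP7, 1.59 and 1.18, were larger in size than those of TXNRD1 and GCLM, and their promoters are not printed. Each printed sequence runs 5′ to 3′ on the gene's strand from 250 bases before its start to the first 10 of the gene, with the matches in capitals. They lie at chr12:104215529-104215788 (+ strand), chr1:93909421-93909680 (- strand) and chr19:15934858-15935117 (- strand).
TXNRD1: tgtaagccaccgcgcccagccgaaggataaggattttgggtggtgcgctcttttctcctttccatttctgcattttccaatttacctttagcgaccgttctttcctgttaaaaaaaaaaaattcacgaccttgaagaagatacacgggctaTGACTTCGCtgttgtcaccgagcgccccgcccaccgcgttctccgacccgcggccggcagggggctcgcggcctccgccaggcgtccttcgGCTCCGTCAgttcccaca
GCLM: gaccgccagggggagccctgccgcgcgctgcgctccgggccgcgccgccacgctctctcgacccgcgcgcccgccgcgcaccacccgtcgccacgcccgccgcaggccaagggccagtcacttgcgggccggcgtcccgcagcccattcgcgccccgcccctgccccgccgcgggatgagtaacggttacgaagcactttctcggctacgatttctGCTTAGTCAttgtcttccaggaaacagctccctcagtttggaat
CYP4F11: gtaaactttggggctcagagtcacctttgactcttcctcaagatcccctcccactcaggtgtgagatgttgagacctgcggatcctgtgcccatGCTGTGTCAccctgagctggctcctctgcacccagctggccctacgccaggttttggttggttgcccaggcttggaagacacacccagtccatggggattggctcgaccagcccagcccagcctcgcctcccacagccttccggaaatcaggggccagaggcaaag
TXNRD1 has 2 matches, one on each strand, whose first bases lie 99 and 8 bases before the start, and the single match of GCLM and of CYP4F11 lies on the opposite strand, 34 and 156 bases before it. A match is only a description of letters.

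Targets of AHR leaned to Guibi-tang as well: 6 of 8 measured members were called higher with Guibi-tang, beside 6.37% of all genes, 0 with Saengmaek-san, and the median was -0.39. CYP1A1, the standard reporter of AHR activity, was at 1.64, 1.65 and 1.6 CPM with Saengmaek-san and 3.66, 3.4 and 4.61 CPM with Guibi-tang (-1.26 ± 0.19, adjusted p = 4.23e-06). The vehicle was at 0.664 ± 0.0652 CPM, under every high-dose library of either formula. UGT1A6, which glucuronidates phenols, was at 57.4, 57.3 and 50.8 CPM against 82.7, 73.1 and 74 CPM (-0.48 ± 0.06). It shares exons with the other UGT1A genes, so its reads may not be its own. NQO1 and ALDH3A1, described above, are on this list too. Xenobiotic response element cores, GCGTG on either strand, occurred in 6 of the 7 list members with a RefSeq promoter and in 36.5% of all promoters. The promoter of CYP1A1 (chr15:74725519-74725778 (- strand)) is shown with its match in capitals, 57 bases before the start, because this gene is the pathway's reporter.
CYP1A1: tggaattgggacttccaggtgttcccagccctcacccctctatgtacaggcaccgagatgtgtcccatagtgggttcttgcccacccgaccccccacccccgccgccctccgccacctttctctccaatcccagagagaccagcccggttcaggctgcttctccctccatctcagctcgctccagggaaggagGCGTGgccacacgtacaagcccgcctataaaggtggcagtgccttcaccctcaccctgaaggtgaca
The element occurred as well in 10 of the 18 promoters of the NRF2 list.

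A pair of drug exporters differed in opposite directions. ABCC2, an apical exporter of glutathione and bilirubin conjugates, was at 0.975, 1.81 and 1.13 CPM with Saengmaek-san and 2.96, 4.12 and 4.1 CPM with Guibi-tang (-1.53 ± 0.26, adjusted p = 1.98e-05). ABCB1, the multidrug exporter and a target of the receptor PXR, was at 0.462, 0.638 and 0.895 CPM against 0.351, 0.269 and 0.0922 CPM (1.51 ± 0.44, adjusted p = 0.0161). Both are low in these cells, and ABCB1 stayed called in 8 of the 11 alternative analyses that kept it. ALAS1, the first enzyme of haem synthesis, was higher with Guibi-tang at 63.8, 66.6 and 63.7 CPM against 42.4, 40.7 and 45.6 CPM (-0.59 ± 0.05). CYP3A5, a drug-oxidising cytochrome, differed by -0.37 ± 0.07. Of 7 measured PXR and CAR targets, 4 were called higher with Guibi-tang and 1 with Saengmaek-san, with a median of -0.15.

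Sterol synthesis was the list with the most calls towards Saengmaek-san. Of 25 measured genes of cholesterol synthesis and its control, 15 were called higher with Saengmaek-san and 0 with Guibi-tang, beside 6.38% of all genes, and the median was 0.18. HMGCS1, which makes HMG-CoA, was at 190.1, 186 and 179 CPM with Saengmaek-san and 144, 138 and 138 CPM with Guibi-tang (0.40 ± 0.04, adjusted p = 5.22e-10). INSIG1, which retains the sterol sensor in the endoplasmic reticulum, was at 126, 128 and 126 CPM against 96.7, 89.4 and 89.5 CPM (0.46 ± 0.04). TM7SF2, a sterol reductase, was at 31, 31.9 and 33.7 CPM against 24, 20.7 and 20.3 CPM (0.58 ± 0.06). In each of the 3 the libraries of the formulas did not overlap, and Saengmaek-san was higher.

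Other lipid lists were mixed. Of 10 measured fatty acid synthesis genes, 3 were called higher with Saengmaek-san: ACSS2, which makes cytosolic acetyl-CoA (0.46 ± 0.08), the desaturase SCD (0.26 ± 0.04) and the elongase ELOVL6 (0.25 ± 0.06). ME1, also an NRF2 target, was the 1 called higher with Guibi-tang. Of 15 PPAR targets, 4 were called higher with Saengmaek-san and 3 with Guibi-tang, with a median of -0.03. The former include FABP1, the fatty acid binding protein of liver and gut, at 1.95, 2.13 and 1.52 CPM against 1, 1.3 and 0.876 CPM (0.79 ± 0.25, adjusted p = 0.0273), which stayed called in 9 of 13 alternatives. They also include the lipid droplet protein PLIN2 (0.33 ± 0.09). CPT1A, the gate to mitochondrial fat oxidation, was higher with Guibi-tang (-0.20 ± 0.04).

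Of the secretory lineage's genes that were called, most were higher with Saengmaek-san. ATOH1, the factor that commits cells to goblet and other secretory fates, was at 2.82, 2.71 and 3.54 CPM with Saengmaek-san and 1.05, 1.12 and 0.738 CPM with Guibi-tang (1.65 ± 0.19, adjusted p = 6.25e-09). The vehicle was at 3.91 ± 0.453 CPM, so the Guibi-tang libraries were far under it. TFF3, a goblet cell peptide that protects mucosa, was at 4.41, 4.36 and 4.16 CPM against 2.26, 2.55 and 2.58 CPM (0.80 ± 0.12), and REG4, a secreted lectin, was at 15.6, 15 and 15.6 CPM against 9.42, 8.64 and 9.41 CPM (0.76 ± 0.08). MUC17, a membrane mucin of the absorptive surface, went the other way, at 5.64, 6.85 and 5.95 CPM against 10.6, 11.2 and 11.8 CPM (-0.87 ± 0.20). Of 21 measured goblet cell and mucus genes, 8 were called higher with Saengmaek-san and 2 with Guibi-tang, with a median of 0.20. In such bulk samples, fewer cells of a type and less RNA per cell cannot be told apart. The secreted mucin MUC2, looked at after its value was seen, was at 13.1, 16.3 and 14.2 CPM against 13.6, 12.6 and 11.7 CPM (0.20 ± 0.23, adjusted p = 0.654).

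Through Notch ligands, cells hold their neighbours out of the secretory fate. Of 13 measured Notch genes, 3 were called higher with Saengmaek-san and 1 with Guibi-tang, 9 were not called and the median was 0.02. The ligand DLL4 was at 4.51, 4.73 and 4.86 CPM with Saengmaek-san and 2.16, 2.28 and 2.08 CPM with Guibi-tang (1.11 ± 0.14, adjusted p = 9.99e-08). DLL1, which secretory precursors carry, was at 1.03, 0.956 and 0.7 CPM against 0.501, 0.537 and 0.231 CPM (1.05 ± 0.36, adjusted p = 0.0418) and stayed called in 7 of 13 alternatives. The ligand JAG1 went the other way, at 26.5, 28.2 and 25.8 CPM against 34.9, 40.8 and 40.8 CPM (-0.54 ± 0.07). HES6, an inhibitor of Notch effectors, differed by 0.60 ± 0.13.

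Genes of absorptive surface cells were divided. The CEACAM adhesion molecules were higher with Guibi-tang: CEACAM6 was at 36.8, 37.1 and 40.3 CPM against 72, 68 and 70.9 CPM (-0.88 ± 0.05), and CEACAM7 at 0.359, 0.266 and 0.389 CPM against 0.852, 0.672 and 0.876 CPM (-1.21 ± 0.27, called in 11 of 13 alternatives). CEACAM5 to CEACAM7 summed to 46.6 ± 2.38 CPM with Saengmaek-san and 88.7 ± 2.19 CPM with Guibi-tang, a ratio of 1.9. KRT20, a keratin of mature surface epithelium and 1 of the 10 epithelial markers, was at 252, 243 and 255 CPM against 372, 377 and 380.2 CPM (-0.59 ± 0.05). The brush border protein VIL1 and the lectin LGALS4, from the same markers, were higher with Saengmaek-san (0.21 ± 0.03 and 0.23 ± 0.04). GPA33, a surface antigen among these markers, was also higher with Saengmaek-san (0.89 on the log2 scale, adjusted p = 0.000884), at 2.41, 2.55 and 2.06 CPM against 1.6, 1.08 and 1.11 CPM. Of 15 measured enterocyte genes, 6 were called higher with Guibi-tang and 3 with Saengmaek-san, and their median was 0.14, since the 6 not called all leaned to Saengmaek-san.

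Targets of WNT signalling, which maintains the crypt base, were called in both directions, 6 of 15 higher with Saengmaek-san and 3 with Guibi-tang, with a median of 0.09. ASCL2, a stem cell transcription factor, was at 4.26, 3.83 and 3.35 CPM with Saengmaek-san and 2.46, 1.75 and 2.21 CPM with Guibi-tang (0.83 ± 0.18, adjusted p = 0.000671). EPHB2 and EPHB3, receptors that position cells along the crypt, differed by 0.60 ± 0.15 and 0.45 ± 0.08. The WNT antagonist NKD1 (0.77 ± 0.26) stayed called in 5 of 13 alternatives. AXIN2, the usual readout of the pathway and named after its value was seen, was higher with Guibi-tang (-0.22 ± 0.04, adjusted p = 2.34e-05). BMP and TGF-beta targets were also split, with ID1 at -0.47 ± 0.13 (called in 11 of 13 alternatives), ID2 at 0.48 ± 0.08, TGFBI at 0.54 ± 0.05 and BMP2 at 0.38 ± 0.11 (called in 9 of 13), and 3 of 9 members higher with Saengmaek-san against 1 with Guibi-tang. Among 14 claudin and junction genes, CLDN2, a pore-forming claudin of crypts, was at 163, 162 and 171 CPM against 123, 111 and 113 CPM (0.52 ± 0.05). CLDN1 was higher with Saengmaek-san (0.31 ± 0.06), while the sealing claudin CLDN4 (-0.18 ± 0.04) and cingulin CGN (-0.21 ± 0.05, called in 11 of 13 alternatives) were higher with Guibi-tang.

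**Figure D2:**
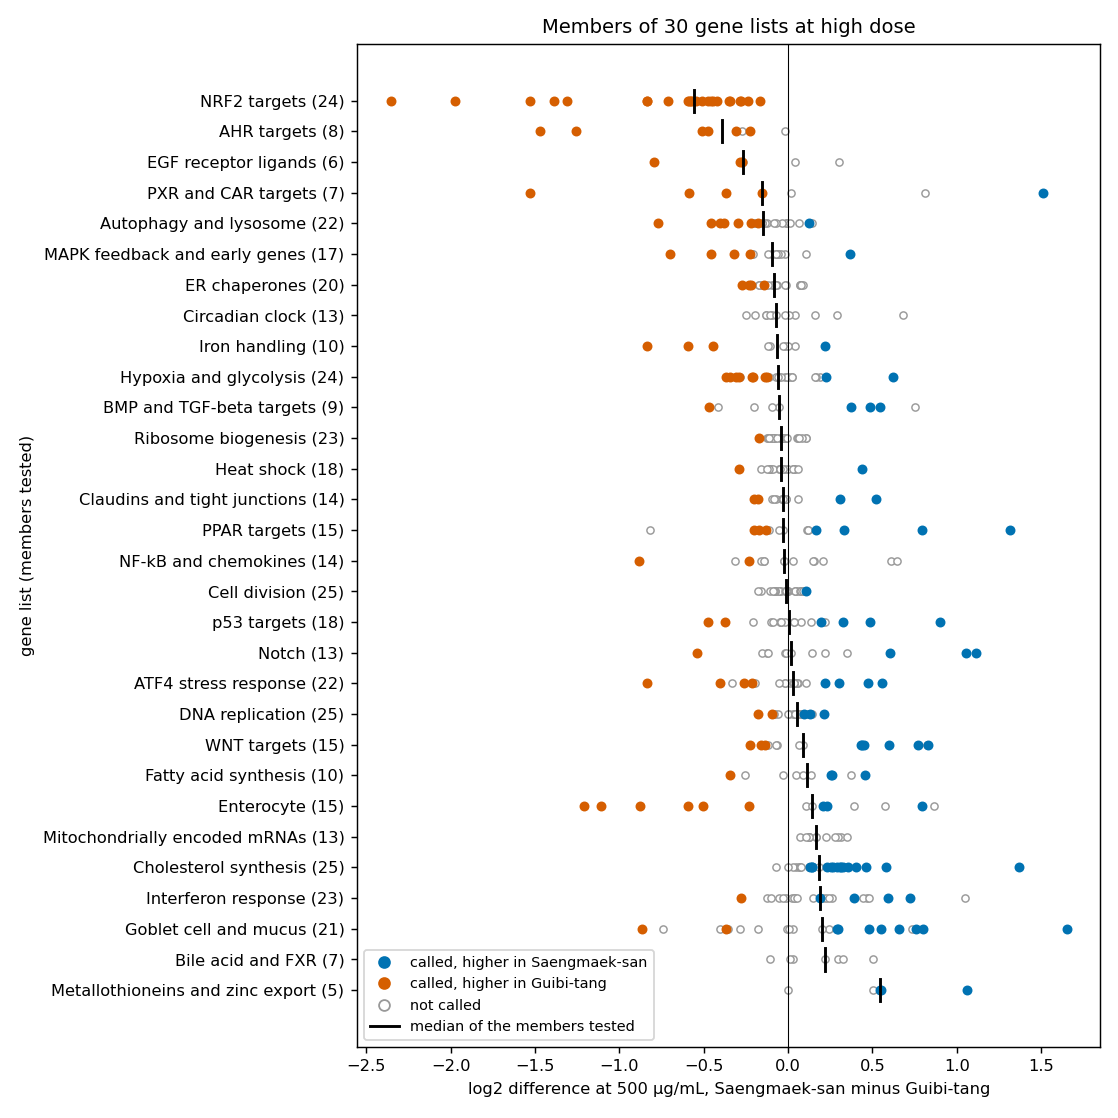
Differences at 500 µg/mL (x axis, log2 of Saengmaek-san minus Guibi-tang) of every measured member of 30 gene lists, ordered by the list's median, with called members filled and medians as black bars. The NRF2 list holds 24 called members of 24, all left of 0, and the cholesterol synthesis list 15 called members of 25, all right of 0.

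Called genes of the lysosome, MAPK and EGF receptor ligand lists mostly leaned to Guibi-tang, as did those of some but not all lists described below. In the lysosome and autophagy list, 7 of 22 members were called higher with Guibi-tang and 1 with Saengmaek-san (median -0.15). The protease CTSL was at 4.1, 3.72 and 4.16 CPM with Saengmaek-san and 6.47, 6.99 and 7.1 CPM with Guibi-tang (-0.77 ± 0.12), and the autophagy receptor SQSTM1, an NRF2 target as well, at 427, 404 and 417 CPM against 556, 596 and 559.8 CPM (-0.46 ± 0.04). CTSD and GLA, a protease and a galactosidase, differed by -0.40 ± 0.05 and -0.38 ± 0.05. Of 17 MAPK feedback and early genes, 4 were called higher with Guibi-tang, among them the ERK phosphatase DUSP5 (-0.70 ± 0.11), FOSL1, a subunit of AP-1 (-0.46 ± 0.09), and the receptor EPHA2 (-0.32 ± 0.04), and 1 with Saengmaek-san, the feedback inhibitor SPRY2 (0.36 ± 0.08). Of 6 EGF receptor ligands, 3 were called higher with Guibi-tang: TGFA (-0.27 ± 0.04), EREG (-0.28 ± 0.08, called in 12 of 13 alternatives) and EGF, whose groups overlapped (1.44, 1.22 and 0.7 CPM against 1.35, 2.11 and 2.21 CPM) and which stayed called in 8 of 13.

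Of the inflammatory and p53-linked lists, NF-kB had 2 of 14 members called, interferon 5 of 23 and p53 6 of 18, beside 12.7% of all genes. BIRC3, an NF-kB target that blocks apoptosis, was at 4.41, 4.68 and 5.13 CPM with Saengmaek-san and 7.77, 9.09 and 9.45 CPM with Guibi-tang (-0.88 ± 0.13, adjusted p = 2.08e-06), and TNFAIP2 (-0.23 ± 0.04) was the other call among 14 NF-kB targets and chemokines. BTG2, an antiproliferative p53 target, was at 31.5, 33.3 and 34.4 CPM against 17.2, 18.4 and 17.6 CPM (0.90 ± 0.06, adjusted p = 4.78e-16), whereas CDKN1A, the cell cycle inhibitor p21, was higher with Guibi-tang at 12.5, 14.1 and 14.8 CPM against 8.92, 10.5 and 10.4 CPM (-0.48 ± 0.09). SESN1 (0.49 ± 0.06) sided with BTG2 and PLK3 (-0.38 ± 0.08) with CDKN1A, and the 18 p53 targets held 4 calls towards Saengmaek-san and 2 towards Guibi-tang, with a median of 0.0060. Of 23 interferon response genes, 4 were called higher with Saengmaek-san, among them IFITM3 (0.72 ± 0.13), IFI6 (0.59 ± 0.20, called in 8 of 13 alternatives) and PSMB8 (0.39 ± 0.12, called in 9 of 13), and IRF1 (-0.28 ± 0.06) was higher with Guibi-tang.

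Metallothioneins are small proteins that bind zinc and copper. Of 5 measured members of the list of metallothioneins and zinc export, 3 were called higher with Saengmaek-san, beside 6.38% of all genes, and 2 were not called. MT1X was at 2.1, 2.13 and 2.22 CPM with Saengmaek-san and 0.501, 1.3 and 1.25 CPM with Guibi-tang (1.06 ± 0.25, adjusted p = 0.00175), with 1 of the Guibi-tang libraries well under the other 2. MT1E was at 45.3, 40.4 and 47 CPM against 33.1, 27 and 30.8 CPM (0.55 ± 0.11), and MT2A at 16.9, 17.1 and 20.1 CPM against 12.6, 10.8 and 13.9 CPM (0.55 ± 0.13). Reads can be divided between these copies, and the sum of 4 of them was 64.8 ± 4.73 CPM against 44.0 ± 4.02 CPM (SD, n = 3), a ratio of 1.47.

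Amino acid, glucose and protein-folding lists had 8 of 22 (ATF4), 10 of 24 (hypoxia and glycolysis), 4 of 20 (ER chaperones) and 2 of 18 (heat shock) members called, beside 12.7% of all genes. The ATF4 list was split evenly, 4 of 22 members each way with a median of 0.03: the cystine carrier subunits SLC7A11 and SLC3A2 (-0.40 ± 0.05) were higher with Guibi-tang, and PHGDH, the first enzyme of serine synthesis, at 34.3, 36 and 35.7 CPM against 23.5, 24.1 and 24.7 CPM (0.55 ± 0.06), and DDIT4, an inhibitor of mTORC1 (0.48 ± 0.10), were higher with Saengmaek-san. Of 24 hypoxia and glycolysis genes, 8 were called higher with Guibi-tang, among them the glucose carrier SLC2A1 at 497, 487 and 513 CPM against 625, 647 and 657 CPM (-0.37 ± 0.03), PFKP (-0.35 ± 0.05) and NDRG1 (-0.31 ± 0.08, called in 12 of 13 alternatives), and 2 with Saengmaek-san, including the carbonic anhydrase CA9 (0.62 ± 0.07). Among 20 ER chaperones, 4 were called higher with Guibi-tang, DNAJC3 (-0.28 ± 0.07), EDEM1 (-0.23 ± 0.06), CANX (-0.22 ± 0.04) and HYOU1 (-0.14 ± 0.04, called in 10 of 13 alternatives), and none reached 1.5-fold. Of 18 heat shock genes, HSPA1B (-0.29 ± 0.06) was called higher with Guibi-tang and HSPB1 (0.44 ± 0.09) with Saengmaek-san.

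Of the proliferation lists, cell division had 1 of 25 and DNA replication 5 of 25 members called, beside 12.7% of all genes. Of 25 cell division genes, 1 was called, the kinesin KIF20A (0.11 ± 0.04), which stayed called in 1 of 13 alternatives, and the median was -0.01. Of 25 DNA replication genes, 3 were called higher with Saengmaek-san, GINS2 (0.21 ± 0.06, called in 9 of 13 alternatives), MCM6 (0.13 ± 0.04, called in 6) and RRM1 (0.10 ± 0.03, called in 2), and 2 with Guibi-tang, including CDC6 (-0.18 ± 0.04). Of 23 ribosome biogenesis genes, RRP9 was the 1 called (-0.17 ± 0.06, called in 6 of 13 alternatives). None of 13 clock genes and 7 bile acid and FXR genes was called, with medians of -0.07 and 0.22. Calls of these sizes, at or under 0.21 on the log2 scale, are near what 3 libraries per formula can resolve, since the SE was 0.04 for KIF20A and 0.06 for GINS2.

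Few genes were called at the lower doses. At 100 µg/mL, 11 of the 16978 genes were called (0.0648%), all 11 higher with Guibi-tang, among them AKR1C1, AKR1C2, AKR1C3, AKR1B10, ALDH3A1, NQO1, FTL, CEACAM6, the drug exporter ABCG2 and the epoxide hydrolase EPHX1. The count was 7 without replicate 2 of either formula at this dose. Without the filter on low counts it was 170, of which 65 were higher with Saengmaek-san and 105 with Guibi-tang, and with DESeq2 it was 16, of which 1 was higher with Saengmaek-san. ABCG2 and EPHX1 are in no list used here and were named after their values were seen. ALDH3A1 had the largest difference among the 11 at this dose (-0.73, adjusted p = 6.65e-16), followed by AKR1C2 (-0.63, adjusted p = 4.35e-06). At high dose, ABCG2 was at 88.4, 82.1 and 79.4 CPM with Saengmaek-san and 119.8, 117 and 120.1 CPM with Guibi-tang, and EPHX1 at 119, 119.5 and 129 CPM against 199, 196 and 208 CPM. Of the NRF2 list, 7 of 24 were called at medium dose and 23 of 24 leaned to Guibi-tang (median -0.13). At 20 µg/mL, 1 gene was called (0.00589%): ALDH3A1, again higher with Guibi-tang (-0.35, adjusted p = 1.52e-05). At an unadjusted p under 0.05 there were 1009 genes at medium and 954 at low dose, against 4263 at high dose. If no gene differed, a share of 0.05 of the 16978 genes would still be expected under that threshold. The count at low dose was 3 without Guibi-tang replicate 1 and 2 without Guibi-tang replicate 2 of that dose. Without the filter it was 189, of which 109 were higher with Saengmaek-san and 80 with Guibi-tang.

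The libraries of the other doses are separate samples from those at high dose. Of the 2164 genes called at high dose, 1590 (73.5%) leaned the same way at medium dose, beside 58.5% of all genes tested, and 984 (45.5%) did so at low dose, beside 46.8%. Across these genes the differences at medium and high dose had a Pearson correlation of 0.486, and those at low and high dose of 0.0198. Those values are across genes, which are not independent replicates, and every medium or low library of a formula shares its extract. The least-squares slope puts the medium-dose difference at 12.1% of the high-dose one. Among the 24 named genes, 23 leaned the same way at medium dose, with LOXL1 as the exception, and 19 at low dose.

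**Figure D3:**
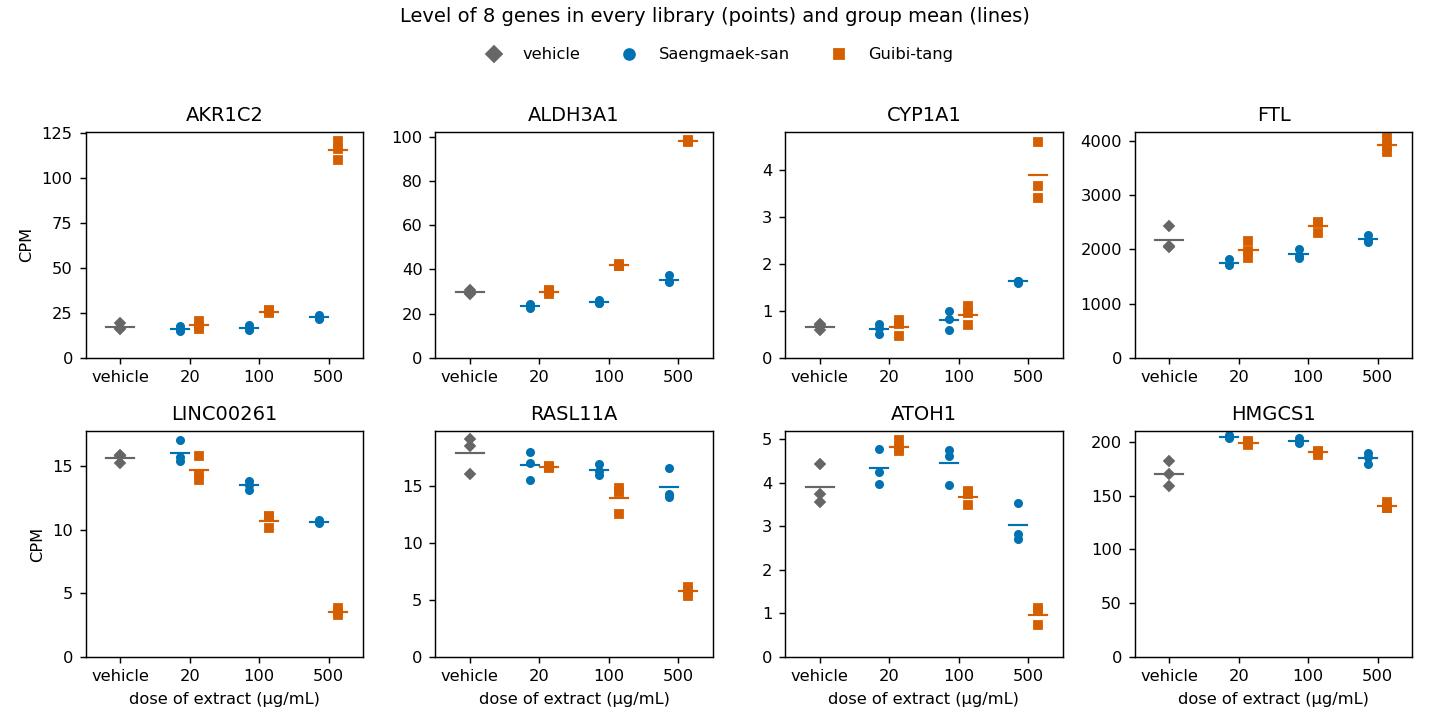
Level in CPM (y axis, from 0) of 8 genes in each library of the vehicle and of both formulas at 20, 100 and 500 µg/mL, with lines at the group means. The formulas lie closer together at 20 µg/mL than at 500 µg/mL, where Guibi-tang is higher in the upper row and lower in the lower row.

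The difference between the formulas was itself larger at high than at low dose for many genes. Testing the high-dose difference minus the low-dose difference called 1224 genes (7.21%), 616 towards Saengmaek-san and 608 towards Guibi-tang. All 24 named genes were among them, and 63 of the 88 further genes named from the lists. Both sets had been chosen by their high-dose difference. This contrast uses the same high-dose libraries, so the counts are only a description. For AKR1C2 this difference of differences was -2.19 ± 0.11 (adjusted p = 1.1e-18), and for LINC00261 it was 1.46 ± 0.12 (adjusted p = 5.96e-12). Of the NRF2 list, 21 of 24 were called towards Guibi-tang, and of the cholesterol list, 13 of 25 towards Saengmaek-san.

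Because that contrast equals the dose change of Saengmaek-san minus the dose change of Guibi-tang, the same 1224 genes responded to dose unequally between the formulas. From 20 to 500 µg/mL, Guibi-tang gave 3042 calls (17.9%), 1501 higher and 1541 lower, and 287 of them reached 2-fold. Saengmaek-san gave 145 calls (0.854%), 70 higher and 75 lower, of which 3 reached 2-fold. That smaller count depended on single libraries: it was 78 and 55 without high-dose replicate 1 and 3, and 60, 87 and 92 without low-dose replicate 1, 2 and 3. Each contrast shares its high-dose libraries with the comparison of the formulas, so the values are given side by side. The 12 genes named higher with Guibi-tang all rose with its dose, by 1.32 to 2.68, and 5 of them rose with Saengmaek-san too, by less. ALDH3A1 rose by 0.59 with Saengmaek-san (adjusted p = 1.31e-12) and by 1.71 with Guibi-tang (adjusted p = 2.17e-31). AKR1B10 rose by 0.65 and 1.9. For ALDH3A1, the Saengmaek-san libraries at 20 µg/mL, at 22.6 to 24.3 CPM, lay under those of the vehicle, at 28.9 to 30.6 CPM. The Guibi-tang libraries at 20 µg/mL, at 28.9 to 30.7 CPM, did not. The vehicle libraries belong to another set. CYP1A1 rose by 1.4 with Saengmaek-san (adjusted p = 0.00086) and by 2.56 with Guibi-tang. Of the NRF2 list, 12 of 24 rose with Saengmaek-san (median 0.25) and 24 of 24 with Guibi-tang (median 0.77), and 0 fell with either.

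The 12 genes named higher with Saengmaek-san all fell with the dose of Guibi-tang, with changes from -2.06 to -0.89. With Saengmaek-san, 5 of them fell, 1 rose and 6 were not called. LINC00261 changed by -0.60 with Saengmaek-san (adjusted p = 3.54e-06) and -2.06 with Guibi-tang. RARRES1 was the 1 that rose with Saengmaek-san (0.41, adjusted p = 0.0169), and it fell with Guibi-tang (-0.89, adjusted p = 8.14e-09). In the cholesterol list, 1 of 25 genes fell with Saengmaek-san, and 20 of 25 fell with Guibi-tang. Among goblet cell and mucus genes, 2 of 21 fell with Saengmaek-san and 11 fell with Guibi-tang, while 1 rose with Guibi-tang. Both lists are to be read beside all 16978 genes tested. Of those, 75 fell with Saengmaek-san, 1541 fell with Guibi-tang and 1501 rose with Guibi-tang. ATOH1 changed by -0.51 (adjusted p = 0.0725) and -2.31 (adjusted p = 2.6e-14) with the formulas in that order.

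Aucklandiae Radix and Polygalae Radix were profiled alone in other libraries of the series, at high doses of 370 and 380 µg/mL and low doses of 14.8 and 15.2 µg/mL, so their doses differ from those of the formulas and the amount of each herb within Guibi-tang is not given in the sources used here. Between high and low dose, Aucklandiae Radix gave 9969 calls (58.7%) and Polygalae Radix 4984 (29.4%). Of the 2164 genes that differed between the formulas, 1916 (88.5%) moved with Aucklandiae Radix in the direction of Guibi-tang, beside 65.0% of all genes. Calls in that direction numbered 1732 among these 2164 genes, beside 7241 among all 16978 genes tested. With Polygalae Radix, 1486 (68.7%) of the 2164 moved in the direction of Guibi-tang, beside 57.5% of all genes. Among the 24 named genes, 22 moved in the direction of Guibi-tang with Aucklandiae Radix and 20 with Polygalae Radix.

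The sizes differed by gene. SDCBP2 and AHNAK2 rose by 4.95 and 6.07 with Aucklandiae Radix and by 1.54 and 1.63 with Guibi-tang, while AKR1C2 and AKR1B10 rose by 0.98 and 0.67 with the herb and by 2.68 and 1.9 with the formula. LINC00261, SLC38A11 and NOX1 changed by -6.15, -4.86 and -4.91 with Aucklandiae Radix. The exceptions with Aucklandiae Radix were ALDH3A1, which fell with both herbs (-0.26 with Aucklandiae Radix, adjusted p = 2.63e-05, and -0.78 with Polygalae Radix, adjusted p = 4.36e-14), and SLC6A20, at 0.24 (adjusted p = 0.0796) and 0.31 (adjusted p = 0.0321). With Polygalae Radix, AKR1C3 (-0.36, adjusted p = 0.00405) and AKR1C1 (-0.04, adjusted p = 0.827) also went against Guibi-tang, AKR1C1 without a call. ABCG2 rose with Guibi-tang (0.64) and fell with both herbs (-0.93 and -0.37). NQO1 rose with Aucklandiae Radix (0.67) and fell with Polygalae Radix (-0.70). Lists moved alike in part: 22 of 24 NRF2 members rose with Aucklandiae Radix, beside 29.6% of all genes, and 17 of 25 cholesterol genes fell and 3 rose, beside 29.2% of all genes that fell. Of 8 AHR targets, 5 rose with this herb and 3 fell. In contrast, 25 of 25 cell division genes fell with Aucklandiae Radix, a list in which 1 gene was called between the formulas.

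**Figure D4:**
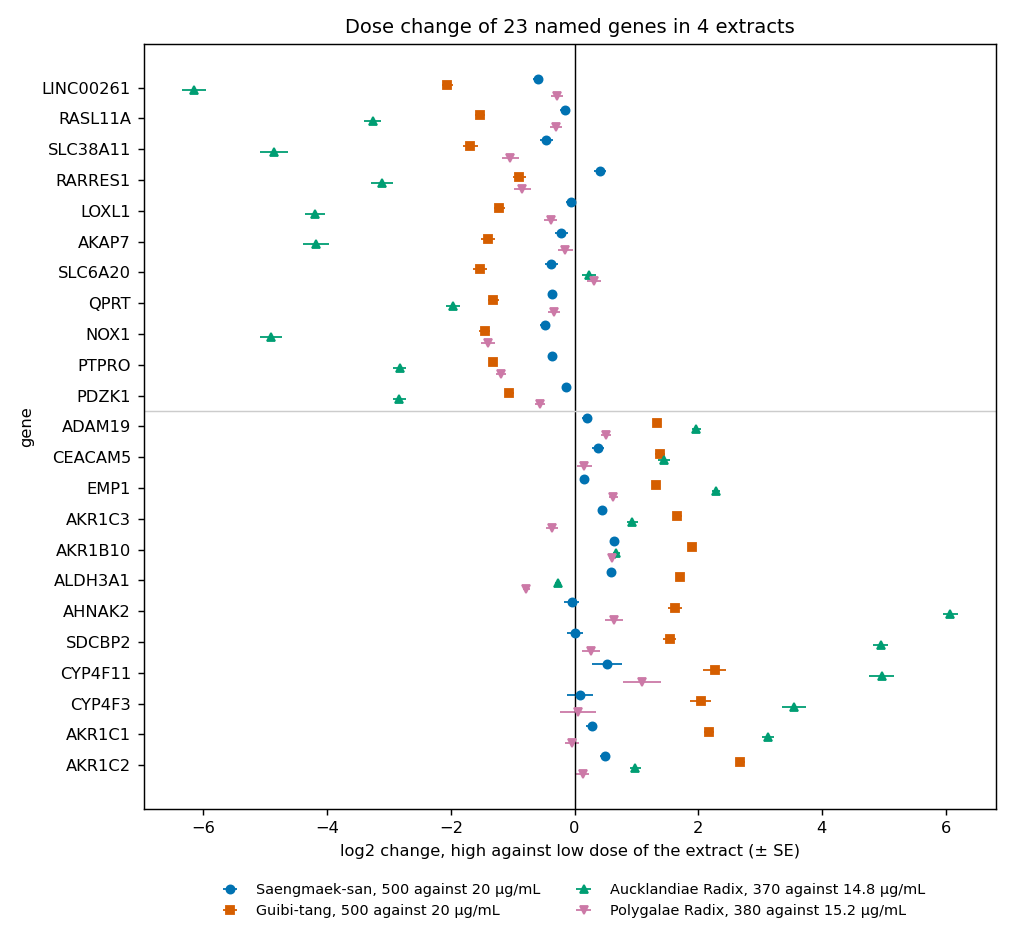
Log2 change from low to high dose (x axis, bars are SE from the edgeR fit) of 23 of the 24 named genes with Saengmaek-san, Guibi-tang, Aucklandiae Radix and Polygalae Radix, with 3 libraries per dose for the formulas and 2 for the herbs. Guibi-tang and Aucklandiae Radix lie on the same side of 0 for 21 of these 23 genes, and Saengmaek-san lies nearer to 0 than Guibi-tang for all 23.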

How the data were processed

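HT29 cells were profiled by mRNA sequencing after 24 h with herbal extracts or DMSO. The deposited values are expected counts per gene. Per the submitters' processing notes, the authors used Trim Galore 0.6.5, FastQC 0.11.9, STAR 2.7.3a and RSEM 1.3.3 with hg38. No label or header names the strand setting or the annotation release, so genes with antisense partners or near-identical copies are uncertain. Of the values, 10% were not whole, and all were rounded to counts. Names come from the gene name table (56558 of 60675 IDs) and positions from GENCODE 29 (57055 IDs).

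The test was the two-sided quasi-likelihood F-test of edgeR 4.0.16 (R 4.3.3), on TMM-scaled counts of genes kept by filterByExpr, with a mean for each group. P-values were adjusted by the Benjamini-Hochberg method over 16978 genes, and a gene is called at an adjusted p under 0.05. The spread was estimated jointly from 56 libraries (34 residual degrees of freedom). Left out were 1 library that stood apart, Saposhnikoviae Radix low replicate 2, and groups of 1 library. Groups follow the sample titles. The fit was tested on simulated data.

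Named genes are the 12 largest called differences in each direction with non-overlapping libraries and a mean of at least 5 CPM, and up to 4 called members per list. Results of 1 of the 24 and of some list members are not reported here. The members, lists and motifs were chosen with earlier results of these data known. Totals of 18690501 to 25823050 counts limit precision for genes of a few CPM. Alternatives were DESeq2 1.42.0, RLE scaling, no filter on low counts, fits of 18 or 6 libraries, a block by replicate number and leaving out each library.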

Additional observations from a re-analysis of the deposited data

Results flagged for a closer look

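The size of the difference between Saengmaek-san and Guibi-tang itself differed between doses. In the edgeR test of the high-dose difference minus the low-dose difference, 1224 genes passed, among them all 24 genes named for their high-dose difference and 63 of the 88 further genes named from lists. Because both the 24 and the 88 were chosen at high dose, their values here are not independent of that choice.

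On the log2 scale, the difference moved towards Guibi-tang from low to high dose by -2.19 for AKR1C2, -1.90 for AKR1C1, -1.21 for AKR1C3 and -1.26 for AKR1B10. For the CYP4F genes it moved by -1.96 (CYP4F3) and -1.74 (CYP4F11). ALDH3A1, which already differed at low dose, moved by -1.12. The others on that side were SDCBP2 (-1.54), AHNAK2 (-1.67), EMP1 (-1.17), CEACAM5 (-1.01) and ADAM19 (-1.15).

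Towards Saengmaek-san, it moved by 1.46 for LINC00261, 1.37 for RASL11A, 1.22 for SLC38A11 and 1.31 for RARRES1. The values were 1.16 for LOXL1, 1.19 for AKAP7 and 1.15 for SLC6A20. QPRT, NOX1, PTPRO and PDZK1 had the smaller values of 0.96, 0.97, 0.95 and 0.92. What lies behind these dose differences was not tested.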

How the results depend on the processing

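The 24 named genes kept their direction and their call in 312 of 312 alternative values, 13 per gene. Of 87 alternative counts of calls, 71 stayed within 1.5 times the reported count. The count at medium dose, 11 as reported, was 6 with only the 18 libraries of both formulas, 170 with no filter on low counts and 7 to 11 when single replicates were left out. At low dose, 1 as reported, it was 2 with DESeq2, 189 with no filter and 1 to 3 without single replicates (3 without Guibi-tang replicate 1, 2 without Guibi-tang replicate 2). Without the filter, 35975 genes were tested, and 10 of the 11 calls at medium dose and the 1 at low dose remained among them. The count for Saengmaek-san high against low, 145 as reported, was 75 with 18 libraries, 428 with no filter and 55 to 108 without single replicates. Differences of 2-fold or more between the formulas numbered 151, and 95 with DESeq2; the cause of these shifts was not tested. The count at high dose was 1562 to 1831 without single replicates and 1971 with DESeq2. Low-level genes such as ABCB1, DLL1, CEACAM7 and NKD1 are limited by depth.

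The formulas share replicate numbers, but nothing in the labels says what a number shares. At high dose, same-numbered libraries deviated from their group means with correlations of 0.052, 0.071 and 0.034 over 10603 genes. Every high-dose library correlated best with its own number, and so did every medium-dose library (0.0997, 0.103 and 0.0518). At low dose this did not hold: the libraries numbered 2 had a correlation of -0.101. Saengmaek-san replicate 3 at low dose correlated best with Guibi-tang replicate 2 (0.106). A pairing is thus at most a hint from the data at some doses, and not from the design. With a replicate block the count at high dose was 2232 in a fit of 18 libraries and 2582 in a fit of the 6.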
